A study of Mus musculus with 2 samples.

Results

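Siglecf-positive neutrophils are neutrophils of the tumour in which RNA of Siglecf was counted, and they were chosen here on those counts. In single-cell libraries from 2 mouse pancreatic tumours, 485 of 7842 neutrophils had at least 1 unique molecular identifier (UMI, the tag that counts 1 captured RNA molecule) of Siglecf and fewer than 4 UMIs of the interferon genes Rsad2, Ifit1, Ifit3 and Cmpk2 together. Barcodes had to hold 500 genes or more and 1000 to 60000 UMIs, of which up to 15% could be mitochondrial. A barcode was taken as a neutrophil when S100a8, S100a9 and Csf3r made up at least 0.4% of its UMIs, with at most 1 UMI of Csf1r and at most 2 of Krt8 and Krt18. These limits left 24160 of 25865 barcodes, and 270 members came from 1 library and 215 from the other. The remaining 7357 neutrophils, called other neutrophils here, include 35 that had Siglecf but reached the interferon limit.

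The tumours grew in the pancreas of mice injected with KPC cells, a mouse pancreatic cancer line from a genetic model that uses the Pdx1-Cre driver. In the group KPC-shV the cells carried a control hairpin, and in the group KPC-shZEB1 a hairpin against Zeb1. Each group was 1 tumour and 1 10x library of polyadenylated RNA, and the labels give no age, strain or sex. Treatment with gemcitabine is described by the study but not by the labels. Because each group is 1 library, no difference has a replicate check and no test was made. Values in parentheses are 95% intervals that cover counting error only, and where values come in pairs the library labelled KPC-shV stands first.

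Siglecf, on chromosome 7 (chr7:43351341-43359531, plus strand, GRCm38), encodes a receptor that binds sialic acids on neighbouring proteins and cells and carries an inhibitory motif in its tail, through which phosphatases such as SHP-1 are brought to the membrane. It is best known as a surface marker of mouse eosinophils and alveolar macrophages. Neutrophils of the blood carry little of it, and neutrophils that have stayed in inflamed or tumour tissue can acquire it. A neutrophil that has newly left the blood typically holds RNA of Retnlg and stefin genes and then turns to chemokine and tissue-factor programmes.

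The libraries held 130941086 and 143461224 UMIs, and the Siglecf-positive neutrophils 1082826 and 829359 of them. Other neutrophils held 16814488 and 7205809 UMIs. Zeb1 was checked first: in barcodes with at least 10 UMIs of keratin genes it was at 167 CPM (163–171) and 196 CPM (192–200), where CPM is UMIs per 1000000 UMIs of the population. RNA of the hairpin's target was thus higher where the label gives knockdown, and no difference below is tied to a lower level of it. The study itself shows the knockdown efficiency of Zeb1 in the KPC cells and stained tumours for Zeb1, which these counts do not read. Siglecf-positive neutrophils themselves held 226 and 269 CPM of Zeb1. Of all barcodes, 46 sequences occurred in both libraries, and 0 of them was a Siglecf-positive neutrophil.

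Siglecf was sparse even in the cells chosen by it. Of the members, 220 and 176 had a single Siglecf UMI, 44 and 32 had 2, 6 and 6 had 3, and 0 and 1 had 4. A neutrophil with 0 UMIs is therefore not shown to lack the RNA. Over all neutrophils Siglecf was at 19.7 CPM (17.7–21.9) and 34.5 CPM (30.5–38.8). Other classes of barcode were set by at least 5 UMIs of Cd79a, Cd79b and Ms4a1 (B cell genes), 3 of Cd3d, Cd3e and Cd3g (T cell genes), 10 of Krt8 and Krt18 (tumour keratins) or 10 of C1qa, C1qb and C1qc (macrophage complement genes). In barcodes with B cell genes Siglecf was at 3.49 and 2.20 CPM, in those with T cell genes at 0.631 and 3.57 CPM, in those with tumour keratins at 1.05 and 1.52 CPM and in those with C1q genes at 3.404 and 2.68 CPM. Per RNA counted, each of these classes was below the neutrophils. By the share of cells with a UMI the order was less clear, since neutrophils had 5.58% and 8.78%, C1q barcodes 5.57% and 5.18%, and keratin barcodes 2.62% and 4.08%. Those classes are deeper, with a median of 16559 and 20104 UMIs in C1q barcodes and 29284 and 28365 in keratin barcodes, against 3180.5 and 2909.5 in neutrophils. After each cell was thinned to 1000 UMIs, with no cell left out, the share was 1.63% and 3.11% in neutrophils and at most 0.512% and 0.445%, in C1q barcodes, among the other 4 classes. B cell barcodes, which should lack Siglecf, had it in 1.65% and 0.738% of cells before thinning, at a median of 4135 and 3812 UMIs. The neutrophil share was above that level in both libraries.

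**Figure D1:**
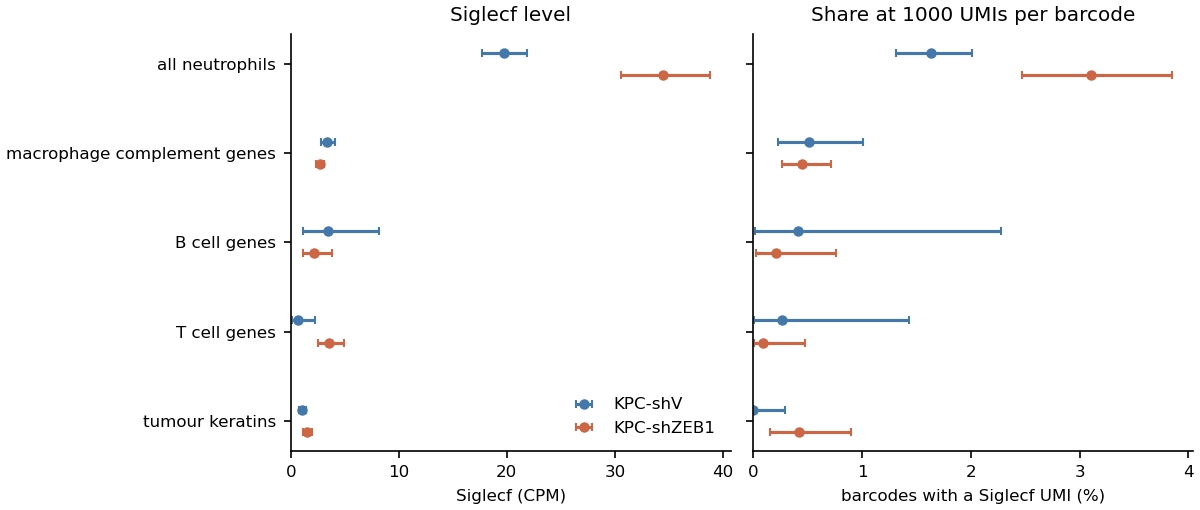
Level of Siglecf in CPM, with 95% counting intervals, in all neutrophils and in 4 other classes of barcode of each library. Neutrophils, at 19.7 and 34.5 CPM, lie above the other classes, which reach at most 3.57 CPM.

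The limits of the choice cut through populations that go on outside them. Of the neutrophils with Siglecf, 8 and 8 lay just inside the interferon limit with 3 UMIs, and 2 and 1 just outside it with 4. Members with neutrophil genes at 0.4 to 0.5% of UMIs numbered 20 and 27, and barcodes with Siglecf just under the limit, at 0.3 to 0.4%, numbered 19 and 33. The members held 47.2% and 28.7% of all Siglecf UMIs in kept barcodes. Within the gate Siglecf was found more often where the neutrophil genes were low. Its share was 7.75% and 11.4% at 0.4 to 0.8% of UMIs and 4.51% and 6.94% at 3.2% and above.

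The name was then checked against its markers, which are a description because the same cells were chosen by Siglecf. Abca13, the gene of a lipid-transporter family protein (chr11:9191942-9684259, plus strand), was at 140.4 CPM against 42.2 CPM, and 221 against 65.5 CPM. It had a UMI in 20.4% against 7.34% of cells, and 25.1% against 9.03%. Mmp9, the gelatinase of neutrophil granules, was at 830.2 CPM against 472 CPM, and 784 against 516 CPM, with a UMI in 81.9% against 54.8% of cells, and 80% against 58.8%. Relative to the median gene described below, Abca13 was past 1.5-fold in both libraries and Mmp9 in the library labelled KPC-shV alone, with 1.54 (1.43–1.65) and 1.32 (1.21–1.43). Il23a, the p19 subunit of interleukin-23, did not follow the name: it was at 619.7 CPM against 546 CPM, and 445 against 572 CPM. The S100a8 level was 10373 CPM against 10605 CPM, and 7386 against 7114 CPM, and that of Csf3r, the G-CSF receptor, was 908 CPM against 1083 CPM, and 731 against 1030.1 CPM. Neither of these genes of the rule was higher with Siglecf by the fold used below. Of members, 10.0% and 10.7% had no UMI of Abca13, Mmp9 or Il23a, against 31.7% and 27.4% of other neutrophils, and 5.56% and 6.51% had all 3. Of the markers of the name, Abca13 thus passed the fold in both libraries and Il23a in neither.

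Markers of other cell types were summed in the same way. Of 9 eosinophil genes, 6 were at 0 in the members of each library, and the list summed to 11.1 against 19.5 CPM and 25.3 against 22.5 CPM. The mast cell and basophil list summed to 10.2 against 11.7 CPM and 16.9 against 12.8 CPM, with 2 of 4 genes at 0. Macrophage markers summed to 936 against 956 CPM and 2355 against 2440 CPM, so the sums were closer with and without Siglecf than between the libraries. Lymphocyte markers summed to 42.5 against 49.7 CPM and 152 against 111 CPM, higher in the members of the library labelled KPC-shZEB1. Tumour and stroma markers summed to 451 against 530 CPM and 588 against 649 CPM. Pancreatic acinar markers summed to 116 against 90.7 CPM and 629 against 728 CPM, higher in members in the first case and lower in the other. No marker of the macrophage, lymphocyte or tumour and stroma lists was at 0, and their part in the results was not tested. Scores for doublets above 0.2 were found in 2.22% of members against 2.14% of others, and in 1.40% against 1.27%.

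Siglecf-positive cells made up 5.13% (4.55–5.76) of neutrophils in the library labelled KPC-shV, 270 of 5268, and 8.35% (7.31–9.49) in the library labelled KPC-shZEB1, 215 of 2574. The ratio of the second share to the first was 1.63 (1.36–1.96), and 1.97 (1.43–2.71) after thinning to 1000 UMIs. After thinning, the Siglecf and interferon limits were read on the thinned counts, which makes the interferon limit looser. Among all kept barcodes the order turned, with 2.31% and 1.73%, a ratio of 0.749 (0.623–0.900), where neutrophils were 5268 of 11713 and 2574 of 12447 barcodes. Among neutrophils with at most 1 UMI in each of 6 marker sets of other lineages, a limit chosen after the data were seen, the shares were 4.89% (136 of 2783) and 5.22% (29 of 556), a ratio of 1.07 (0.689–1.603). Among the remaining neutrophils they were 5.39% (134 of 2485) and 9.22% (186 of 2018), a ratio of 1.71 (1.36–2.15). The intervals of these ratios overlap. Depth differed with the limit too, at a median of 2974 and 2587 UMIs under it and 3453 and 3004.5 over it, and the part of either was not tested.

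Siglecf-positive neutrophils were somewhat deeper than others, with a median of 3650 against 3159 UMIs and 3373 against 2870. At 1000 UMIs per cell they held a median of 610 against 566 genes and 650 against 595, and their 20 leading genes took 18.9% against 21.3% and 16.2% against 18.7% of UMIs. Ribosomal protein genes took 4.32% against 3.59% and 4.86% against 3.88%. The median ratio of Siglecf-positive to other neutrophils over 5128 genes of at least 20 CPM was 1.14 and 1.15, or 0.19 and 0.20 on the log2 scale. Fold changes are therefore given relative to that median gene, with CPM values as counted.

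Relative to the median gene, 206 of the 5128 genes were higher in Siglecf-positive cells by at least 1.5-fold in both libraries (4.02%), and 364 were lower (7.1%). Without that centring the counts were 519 higher (10.1%) and 185 lower (3.61%), so the balance of the directions rests on the centring. The 12 genes with the highest and the 12 with the lowest ratios in both libraries are described next. They were chosen by the contrast itself, so their values are a description.

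Of the 12 higher genes, 5 that encode enzymes or a transporter are given first, and the protease gene Prtn3 follows with the granule genes. Ltc4s encodes leukotriene C4 synthase, which joins glutathione to leukotriene A4, and Ptgs1 encodes cyclooxygenase-1, which makes the precursor of prostaglandins and thromboxane. Ltc4s (chr11:50236461-50238616, minus strand) was at 84.0 CPM against 15.7 CPM, and 95.3 against 34.3 CPM, which is 4.68 (3.64–5.96) and 2.41 (1.85–3.12) times the median gene. Ptgs1 (chr2:36230426-36252272, plus strand) was at 77.6 CPM against 28.1 CPM, and 121 against 41.6 CPM, with relative ratios of 2.41 (1.89–3.05) and 2.51 (1.98–3.16). Among neutrophils with at most 1 UMI in each marker set of other lineages, of which 29 members remained in the library labelled KPC-shZEB1, the relative log2 ratio of Ptgs1 there was −0.0037. Abca13, described above, had relative ratios of 2.91 (2.43–3.47) and 2.92 (2.45–3.47). In members of the library labelled KPC-shZEB1, 35 of its 183 UMIs came from 1 cell. Against neutrophils without Siglecf under the interferon limit, it varied with the level of neutrophil genes. It was at 51.8 against 46.8 CPM and 147 against 65.5 CPM at 1.6 to 3.2% of UMIs. At 3.2% and above, Abca13 was at 237 against 34.2 CPM and 589 against 81.8 CPM. It was low in other classes, at 4.19 and 6.78 CPM in B cell barcodes and 2.41 and 3.04 CPM in C1q barcodes. Gpd1l, an enzyme related to glycerol-3-phosphate dehydrogenase, was at 35.1 CPM against 5.23 CPM, and 50.6 against 12.4 CPM, and Inpp5b, a phosphatase of membrane inositol lipids, at 28.6 CPM against 8.45 CPM, and 54.3 against 17.6 CPM. Each of these 5 genes was higher in the Siglecf-positive cells of both libraries.

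Another 3 encode proteins of the surface or of granules. Gpc3 (chrX:52272426-52613950, minus strand) encodes glypican-3, a heparan sulfate proteoglycan anchored in the outer membrane. It was at 185 CPM against 38.0 CPM, and 170.0 against 48.7 CPM, with relative ratios of 4.25 (3.61–4.99) and 3.03 (2.47–3.69), and had a UMI in 17.4% against 4.28% of cells, and 19.1% against 4.92%. Its level was at most 14.7 CPM in the B cell, T cell, keratin and C1q barcodes, so among these classes its RNA was found mainly in neutrophils. Prtn3 (chr10:79874476-79883174, plus strand) encodes proteinase 3, a serine protease of the azurophil granule that is normally transcribed in bone marrow precursors. It was at 44.3 CPM against 11.8 CPM, and 41.0 against 11.8 CPM, with 3.27 (2.34–4.51) and 3.02 (1.96–4.54) times the median gene. Gpr171 (chr3:59096448-59101821, minus strand), a G protein-coupled receptor, was at 70.2 CPM against 11.7 CPM, and 197 against 40.8 CPM, with relative ratios of 5.24 (3.96–6.86) and 4.18 (3.43–5.08). It was found in 11.1% against 2.96% of cells, and 32.6% against 7.55%. B cell barcodes held it as well, at 135 and 166 CPM. The B cell gene Cd79a was at 12.9 against 7.02 CPM and 13.3 against 21.2 CPM in the same neutrophils.

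The remaining higher genes include regulators of signalling and transcription. Rcan1, an inhibitor of the phosphatase calcineurin, was at 159.8 CPM against 55.7 CPM, and 252 against 89.8 CPM, and Zfhx3, a transcription factor with zinc fingers and homeodomains, at 189 CPM against 68.6 CPM, and 289 against 104 CPM. Rapgef5, which activates the small GTPase Rap, was at 40.6 CPM against 11.8 CPM, and 51.8 against 14.4 CPM. The last, 2510009E07Rik, was at 32.3 CPM against 8.27 CPM, and 36.2 against 10.4 CPM. Of these, Rcan1 and Zfhx3 were also well counted outside neutrophils, at 301 and 246 CPM and 178 and 177 CPM in C1q barcodes. In single cells the pattern was patchy. At least 2 of Gpr171, Gpc3, Ltc4s, Abca13 and Prtn3, a set picked after the values were seen, had a UMI in 21.1% and 34.0% of members and in 2.88% and 5.64% of other neutrophils. None of the 5 was found in 50.4% and 39.1% of members and in 80.7% and 75.7% of others.

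**Figure D2:**
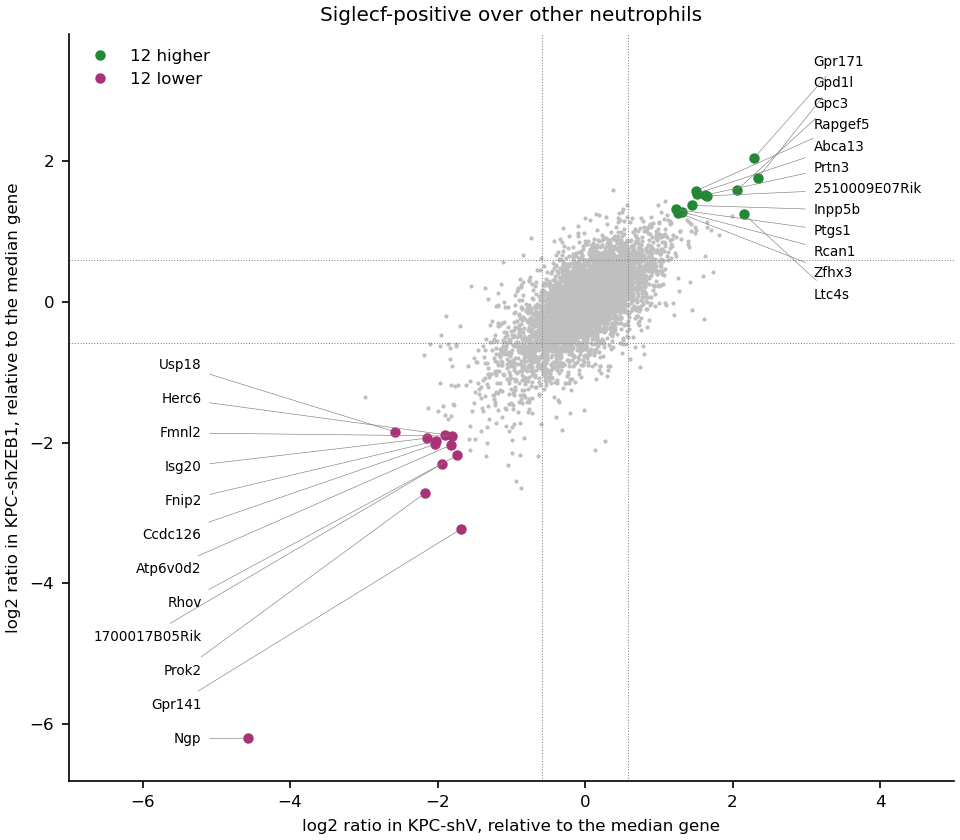
Log2 ratio of Siglecf-positive to other neutrophils in the library labelled KPC-shV (x axis) and that labelled KPC-shZEB1 (y axis), relative to the median gene, 1 point per gene of 5128. The 12 higher genes, at the upper right, and the 12 lower genes, at the lower left, are named, and dotted lines mark 1.5-fold.

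Promoters of these genes are shown because their RNA goes with that of Siglecf in the same cells. Below are the 250 bases before the RefSeq transcription start in GRCm38.p6 for Siglecf at chr7:43351091-43351340 (plus strand), Prtn3 at chr10:79879417-79879666 (plus strand), Ptgs1 at chr2:36230176-36230425 (plus strand) and Abca13 at chr11:9191692-9191941 (plus strand), 5′ to 3′ on the strand of the gene. Capitals mark the core of the PU.1 motif, GAGGAA, on either strand.
Siglecf: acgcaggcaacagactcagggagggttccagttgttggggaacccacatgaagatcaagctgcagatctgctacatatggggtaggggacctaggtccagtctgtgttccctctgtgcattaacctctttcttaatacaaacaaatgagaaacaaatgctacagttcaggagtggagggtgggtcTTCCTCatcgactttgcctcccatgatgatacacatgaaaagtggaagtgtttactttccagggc
Prtn3: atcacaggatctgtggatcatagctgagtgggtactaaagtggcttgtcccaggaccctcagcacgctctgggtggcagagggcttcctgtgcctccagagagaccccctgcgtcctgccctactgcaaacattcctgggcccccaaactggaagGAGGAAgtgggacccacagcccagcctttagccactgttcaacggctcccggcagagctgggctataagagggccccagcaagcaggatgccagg
Ptgs1: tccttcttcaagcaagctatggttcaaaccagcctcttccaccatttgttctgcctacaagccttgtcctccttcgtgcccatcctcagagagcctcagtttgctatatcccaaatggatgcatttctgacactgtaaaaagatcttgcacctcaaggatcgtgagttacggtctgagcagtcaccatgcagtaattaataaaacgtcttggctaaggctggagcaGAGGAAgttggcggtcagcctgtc
Abca13: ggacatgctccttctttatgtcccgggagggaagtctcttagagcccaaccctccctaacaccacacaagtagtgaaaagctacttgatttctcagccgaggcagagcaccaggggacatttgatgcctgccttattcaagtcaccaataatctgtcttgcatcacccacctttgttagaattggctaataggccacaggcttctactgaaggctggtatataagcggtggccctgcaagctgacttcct
PU.1 is a factor that myeloid cells need for many of their genes. The match starts at −65 in Siglecf, −95 in Prtn3 and −24 in Ptgs1, counted from the RefSeq transcription start. For Prtn3 this start lies inside the gene span given above, which begins further upstream. None lies in the window of Abca13. Of the 12 higher genes, 11 had a promoter in the table, and 4 of them held a match: Prtn3, Ptgs1, Rapgef5 (at −58) and Inpp5b (at −175). Gpr171, Usp18 and Atp6v0d2 had no entry. Of the 10 windows of lower genes, 2 held a match, against 23.3% of all 32851 promoters. Other motifs were searched on both strands in the same way. The C/EBP letters TTNNGCAA, found in 9.56% of all promoters, occurred in 0 windows of higher and 1 of lower genes. The letters of the GATA-family site, AGATAA, found in 9.99%, occurred in 1 and 0 windows. The Nr4a letters AAAGGTCA, found in 1.34%, occurred in 0 and 0 windows. The hypoxia-response letters ACGTG, found in 16.6%, occurred in 2 and 3 windows. A match is a description of letters only.

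Among the 12 lower genes, 3 are induced by interferon. Isg20, an exonuclease induced by interferon, was at 23.1 CPM against 91.6 CPM, and 38.6 against 131 CPM, Usp18, the protease that removes ISG15, at 10.2 CPM against 57.0 CPM, and 12.1 against 39.8 CPM, and Herc6, the mouse ligase for ISG15, at 42.5 CPM against 141 CPM, and 43.4 against 142 CPM. The choice of members by the interferon limit fixes much of this, since other neutrophils include 672 and 240 cells over the limit and members none. Fnip2, a partner of folliculin in nutrient signalling, was at 185 CPM against 658 CPM, and 106 against 365 CPM, with relative ratios of 0.245 (0.212–0.282) and 0.252 (0.202–0.312). Fmnl2, a formin that builds actin filaments, was at 283 CPM against 860.4 CPM, and 238 against 776 CPM, with relative ratios of 0.287 (0.255–0.321) and 0.266 (0.229–0.306). These 2 genes carried the largest counts among the lower genes, and both were lower in each library. Prok2, a secreted peptide that attracts myeloid cells, was at 12.01 CPM against 50.1 CPM, and 2.41 against 18.5 CPM. Atp6v0d2, a subunit of the proton pump of lysosomes, was at 25.9 CPM against 81.4 CPM, and 15.7 against 58.1 CPM, Rhov at 18.5 CPM against 55.6 CPM, and 8.44 against 36.2 CPM, and Gpr141, a G protein-coupled receptor, at 19.4 CPM against 56.4 CPM, and 3.62 against 36.6 CPM. Ccdc126 was at 18.5 CPM against 68.4 CPM, and 9.65 against 36.5 CPM and 1700017B05Rik at 38.8 CPM against 132 CPM, and 18.1 against 80.5 CPM. For Prok2 and Gpr141 the members of the library labelled KPC-shZEB1 held 2 and 3 UMIs, so their ratios there span 0.0136–0.418 and 0.0176–0.253.

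Ngp, a granule protein of immature neutrophils, had the lowest ratio as counted: members held 1 UMI and 0 UMIs, against 38.8 and 62.6 CPM in other neutrophils. Ngp was however carried by 0.84% and 0.89% of the other neutrophils, so a few cells set its level. With 270 and 215 members, the share of cells that carry it is not shown to be lower. Camp, the cathelicidin of the specific granule, had 2 UMIs and 1 UMI in members against 28.7 and 18.7 CPM in others. The granule genes did not move as a group. Of 7 measured well enough, 1 was higher past 1.5-fold in both libraries relative to the median gene (Prtn3) and 2 were lower, Ngp and Ltf, the lactoferrin gene, at 25.9 CPM against 50.9 CPM, and 44.6 against 62.0 CPM. Among all genes tested, 4.02% were higher and 7.1% lower. Cd177, a granule and surface protein, was at 145 CPM against 96.1 CPM, and 163 against 92.4 CPM.

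Genes of recently recruited neutrophils were lower in 7 of 12 measured in both libraries relative to the median gene, with 0 higher, and in 5 without the centring, at median log2 ratios of −0.81 and −1.25, where 7.1% of all genes were lower. Retnlg, a resistin-like secreted protein, was at 439 CPM against 912 CPM, and 252 against 549 CPM. Asprv1, a protease, was at 209.6 CPM against 364 CPM, and 76.0 against 295 CPM, Stfa2l1, a stefin, at 227 CPM against 500.2 CPM, and 183 against 359 CPM, and Il1f9, an interleukin-1 family cytokine, at 321 CPM against 508 CPM, and 174 against 410.1 CPM. Cxcr2, the receptor for neutrophil-attracting chemokines, differed between the libraries, at 320.5 CPM against 258 CPM, and 235 against 347 CPM.

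Hypoxia and glycolysis genes were lower as well, in 7 of 18 with 0 higher (5 without the centring), at medians of −0.83 and −0.47. Over all genes 7.1% were lower, and 3.61% without the centring. Ero1l, an oxidase of the endoplasmic reticulum, was at 333 CPM against 988 CPM, and 244 against 487 CPM, and Bnip3, a mitophagy receptor, at 127 CPM against 335 CPM, and 100.1 against 163 CPM. Hilpda, a lipid droplet protein, was at 759 CPM against 1531 CPM, and 617 against 844 CPM and the glucose transporter gene Slc2a1 at 213 CPM against 395 CPM, and 222 against 319 CPM. The ratios were nearer to 1 in the library labelled KPC-shZEB1 for each of these 4 genes. Stress and unfolded protein response genes had 2 of 13 lower and 0 higher (1 and 0 without the centring), with medians of −0.67 and −0.43.

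Chemokine ligands showed uneven differences. Of 11 genes, 3 were lower and 0 higher (2 and 0 without the centring), with medians of −0.50 and −0.50. Over all genes 7.1% were lower, and 3.61% without the centring. Cxcl3, a ligand of Cxcr2, was at 961 CPM against 3121 CPM, and 662 against 1752 CPM, and Ccl6 at 1146 CPM against 3319.6 CPM, and 991 against 1951 CPM. Cxcl2, the leading gene of these cells and another ligand of Cxcr2, was at 28265 CPM against 34922 CPM, and 22196 against 27291 CPM. Its ratio relative to the median gene was 0.707 and 0.706, short of 1.5-fold. Ccl3 and Ccl4 had relative ratios of 0.655 and 0.679 and of 0.803 and 0.835. Of 14 cytokine and growth factor genes only Osm passed the fold in both libraries, at 446 CPM against 719.6 CPM, and 187 against 539 CPM.

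Among 15 genes that act on T cells, 7 were lower and 0 higher, with medians of −0.54 and −0.71. Cd274, which encodes PD-L1, was at 1654 CPM against 2444 CPM, and 1207 against 1803 CPM, or 0.591 (0.564–0.62) and 0.581 (0.544–0.62) times the median gene. Tnfrsf23, a decoy receptor for TRAIL, was at 125 CPM against 286 CPM, and 89.2 against 228 CPM, and Lgals3, galectin-3, at 329 CPM against 587 CPM, and 279 against 397 CPM. Arg1, the arginase gene, was at 29.6 CPM against 51.2 CPM, and 43.4 against 68.6 CPM. All 4 of these named genes were lower in both libraries, but without the centring only 2 of the 15 passed the fold. Over all genes 7.1% were lower with the centring and 3.61% without it.

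Of 14 lysosome genes, 6 were lower and 1 higher, or 2 and 1 without the centring. Over all genes 7.1% were lower and 4.02% higher, or 3.61% and 10.1% without it. Among the lower were Cstb, a cathepsin inhibitor, at 561 CPM against 1145 CPM, and 336 against 588 CPM, and Gpnmb, a lysosomal membrane protein, at 16.6 CPM against 54.7 CPM, and 16.9 against 48.3 CPM. Lipid mediator and transport genes had 3 of 10 higher, namely Ltc4s, Abca13 and Alox5, the 5-lipoxygenase that feeds leukotriene synthesis, at 69.3 CPM against 31.6 CPM, and 79.6 against 44.7 CPM. Abcg1, a sterol exporter, was lower, at 44.3 CPM against 94.6 CPM, and 48.2 against 86.0 CPM. Other members of that list stayed near the median gene: Alox5ap, the partner of 5-lipoxygenase, had relative ratios of 1.08 and 0.758 and Ptgs2, cyclooxygenase-2, of 1.03 and 0.875.

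Receptors of the neutrophil surface had single genes past the fold, where 4.02% of all genes were higher and 7.1% lower. Il1r2, the decoy receptor for interleukin-1, was at 2106 CPM against 1157 CPM, and 2942 against 1630.1 CPM, with 1.59 (1.52–1.66) and 1.57 (1.499–1.64) times the median gene, and was the 1 higher gene of 10 neutrophil identity genes, of which Fcgr3, an Fc receptor, was the 1 lower. Itgax, the integrin chain CD11c, was at 79.4 CPM against 32.9 CPM, and 86.8 against 49.5 CPM, and Fpr1, a receptor for formyl peptides, at 143 CPM against 265 CPM, and 90.4 against 225 CPM, the 1 higher and the 1 lower of 12 adhesion and migration genes. Among Siglec genes, Siglece was at 116 CPM against 77.1 CPM, and 130.2 against 101.4 CPM and Cd33 at 322 CPM against 335 CPM, and 239.9 against 330.4 CPM. Cd24a, which encodes a sialylated protein that Siglecs can bind, was at 426 CPM against 619 CPM, and 256 against 409.9 CPM and was the 1 lower gene of the 3 measured in that list. Ptpn6, the phosphatase SHP-1 that inhibitory motifs recruit, was at 211 CPM against 116 CPM, and 228 against 132 CPM. Its relative ratios were 1.59 (1.38–1.82) and 1.497 (1.27–1.75), at the edge of the fold, and 0 of the 8 phosphatase and kinase genes passed in both libraries after centring. Nr4a3, an early-response nuclear receptor, was at 1776 CPM against 1096 CPM, and 1827 against 1200.4 CPM, also short of the fold after centring, as were all 21 transcription factor genes. NADPH oxidase genes (6), MHC class II genes (4) and cell cycle genes (4) had none past it either. Matrix proteases and inhibitors had 2 of 12 lower (Mmp8 and Plau), but without the centring 0 were lower and 2 higher (Mmp9 and Mmp19), so their direction turned with the scaling. Survival genes had 1 of 12 lower (Cflar), near the 7.1% of all genes, and 0 without the centring.

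Type I interferon genes that the rule did not read were lower in 7 of 10, at medians of −1.23 and −1.35, but this follows the interferon limit. Against neutrophils with 0 Siglecf UMIs and under the same limit, 2 of 9 were lower, with medians of −0.40 and −0.76. They were Isg20, at 23.1 against 56.8 CPM and 38.6 against 92.6 CPM, and Ifi204, a sensor of DNA, at 106 against 153 CPM and 62.7 against 148 CPM. The counts of the other lists moved by at most 1 gene with that comparator, where granule genes had 3 lower. In particular 7 of 12 recruited neutrophil genes and 7 of 18 hypoxia genes were lower against it too. The 7.1% of all genes that were lower refers to other neutrophils. The share of all genes lower against this comparator was not taken, so these counts are a description only.

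Cells with more Siglecf UMIs were further from the others for several genes, but not for all. The split uses the same cells and the Siglecf count that chose them, so it is a description. The genes below are examples. Only cells of 2000 to 6000 UMIs were used, with 3743, 190 and 42 cells at 0, 1 and at least 2 Siglecf UMIs in the library labelled KPC-shV and 1861, 155 and 36 in that labelled KPC-shZEB1. All were under the interferon limit. Depth still differed in this window, with medians of 3177, 3482 and 3736 UMIs and of 2922, 3266 and 3426.5 UMIs, and its part was not tested. Cxcl3 had 3228, 1098 and 409.9 CPM in this order, and 1789, 523 and 387 CPM in the other library. Retnlg had 874, 516 and 114 CPM, and 499, 154 and 112 CPM. Both were lowest in the cells with at least 2 Siglecf UMIs, although the intervals of the last 2 groups overlapped in the library labelled KPC-shZEB1. Il1r2 had 1193, 1988 and 2964 CPM, and 1692, 2978 and 3801 CPM. Vegfa, the endothelial growth factor gene, had 152, 175 and 435 CPM, and 150.0, 339.8 and 558 CPM. For these 2 genes the order was the same in both libraries and highest at 2 or more UMIs, with overlapping intervals for the first step of Vegfa in the library labelled KPC-shV. Gpc3 had 38.7, 181 and 265 CPM, and 49.9, 191 and 171 CPM, so its last step went opposite ways. Ltc4s likewise had 15.9, 51.8 and 227 CPM, and 35.6, 111 and 74.4 CPM. Of lower genes, Fmnl2 had 807, 293 and 164 CPM, and 724, 229 and 283 CPM. Ero1l had 925, 331 and 202 CPM, and 458, 205 and 208 CPM. Neither of these was lower at the last step in the library labelled KPC-shZEB1. Il23a, a marker of the name, had 585, 685 and 277 CPM, and 625, 514 and 417 CPM, lowest where Siglecf was highest.

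**Figure D3:**
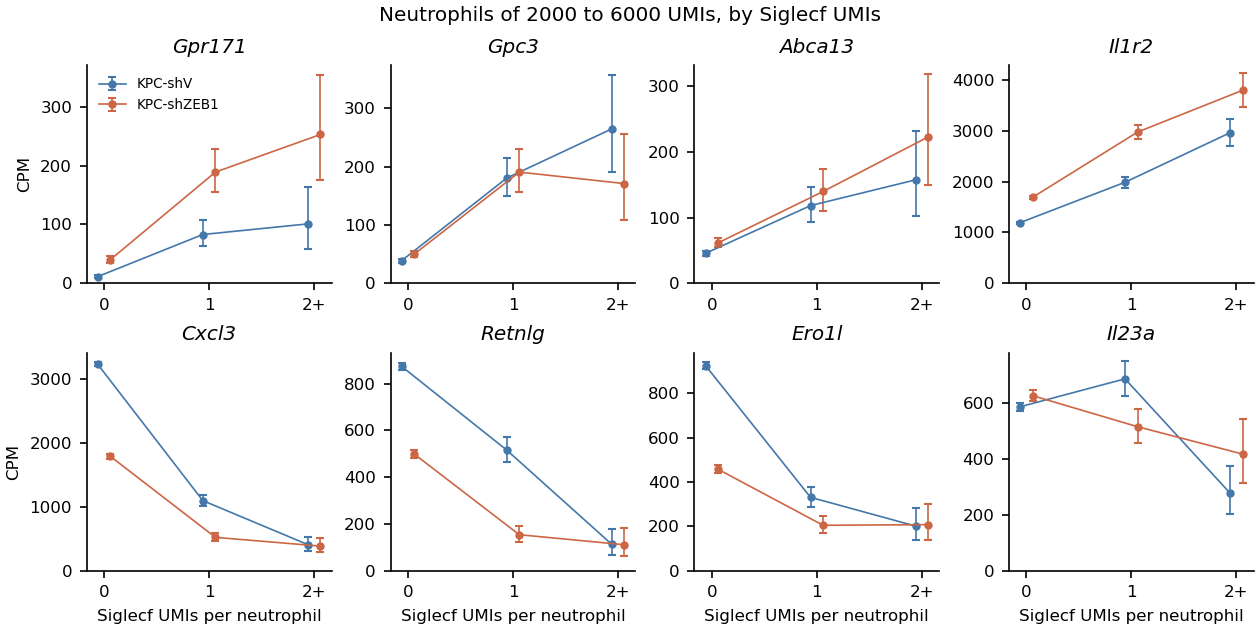
Level in CPM with 95% counting intervals, of 8 genes in neutrophils of 2000 to 6000 UMIs with 0, 1 and at least 2 Siglecf UMIs, in each library. Cxcl3 and Retnlg are lower with each step, while Gpr171, Abca13 and Il1r2 are higher, with overlapping intervals at the last step for Gpr171 and Abca13, and Il23a is lowest at the last.

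A similar contrast was taken in barcodes that the choice of members and genes did not use. These have neutrophil genes at 0.1 to 0.4% of UMIs, under the gate, and meet the same limits on Csf1r, keratins and interferon genes. They hold 71 barcodes with Siglecf against 1200 without, and 138 against 1037. The comparator is unlike that inside the gate, where other neutrophils include 912 cells at or over the interferon limit. Of the 12 higher genes, 11 and 12 had the same direction there relative to the median gene, and 11 and 9 were past 1.5-fold. Of the 12 lower genes, 10 and 11 had the same direction and 8 and 10 were past it. The 12 higher genes include those that reached 20 CPM only through the members. Over all 206 higher calls, 145 had the same direction in both libraries and 38 passed the fold in both (18.4%), where 109 of the 5128 genes (2.13%) did so. Of the 364 lower calls, 284 had the same direction and 88 passed the fold (24.2%), where 254 genes did (4.95%). These barcodes are a more mixed population. At 0.1 to 0.2% Cd74, high in C1q barcodes, was at 1539 and 1887 CPM, against 285 and 878 CPM in all neutrophils. The neutrophil identity gene G0s2 was at 2524 and 3749 CPM, against 7722 and 6779 CPM. The part of this mixture in the contrast was not tested.

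Gpc3 was at 185 against 38.1 CPM and 168 against 40.6 CPM in those barcodes with and without Siglecf. Mmp9 was at 1059 against 313 CPM and 865 against 556 CPM, and Il1r2 at 2738 against 833 CPM and 2759 against 1745 CPM. Each was higher with Siglecf in both libraries, as inside the gate. Alox5 was at 89.1 against 22.8 CPM and 84.1 against 42.5 CPM and Itgax at 149.7 against 40.3 CPM and 86.1 against 55.7 CPM, again higher. Fnip2 was at 114 against 543 CPM and 134 against 304 CPM and Retnlg at 32.1 against 137 CPM and 24.04 against 67.3 CPM, both lower. Exceptions were Rapgef5 in the library labelled KPC-shV (24.95 against 29.2 CPM), Isg20 in the same library, and Ngp, with at most 5 UMIs in any group. Inside the gate Isg20 was set against neutrophils that include those over the interferon limit. In the library labelled KPC-shZEB1, Gpd1l and Prtn3 were close to the median gene, with 18.0 against 16.7 CPM and 20.03 against 17.4 CPM. Il23a was at 182 against 343 CPM and 643 against 639 CPM, not higher with Siglecf in the first library and alike in the second. Cxcl2 was at 22050.4 against 20253 CPM and 21138 against 20116 CPM, so its lower level inside the gate was not seen here.

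**Figure D4:**
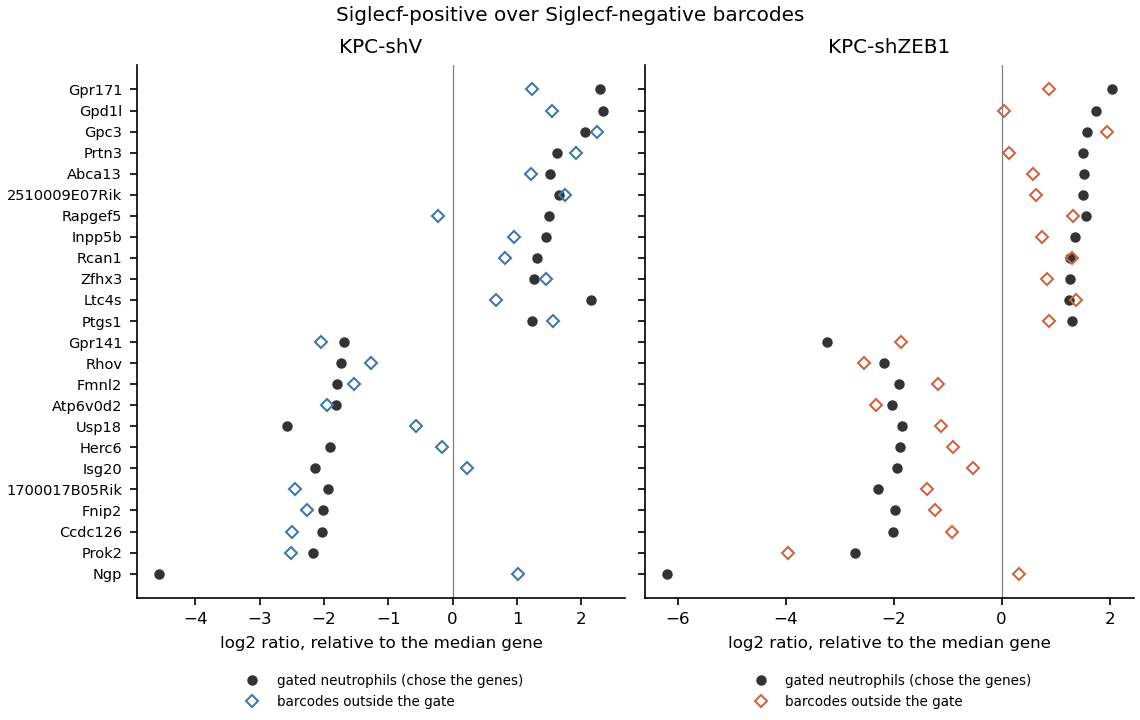
Log2 ratio of barcodes with Siglecf to a comparator, relative to the median gene, for the 12 higher and 12 lower genes in each library. Filled points, which chose the genes, are members over other neutrophils, some of them at or over the interferon limit. Open diamonds are barcodes with neutrophil genes at 0.1 to 0.4% of UMIs, with over without Siglecf, all under that limit. There 11 and 12 of the higher genes and 10 and 11 of the lower ones keep their side of 0.

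Between the libraries, the genes with the highest ratios in Siglecf-positive neutrophils were mostly those of the exocrine pancreas, which differed in other cells too. Of 5377 genes, 721 were higher by at least 1.5-fold in the library labelled KPC-shZEB1 (13.4%) and 255 lower (4.74%). The median ratio was 1.08, or 0.11 on the log2 scale, and relative to it 495 were higher and 416 lower, so the balance of directions again rests on the centring. Of the 976 genes past the fold, 256 passed it in the same direction in the other neutrophils. The share of all genes past it there is not given, so nothing is read from this count.

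Among the 8 genes with the highest ratios, 6 are made by the exocrine pancreas: Try4 and 2210010C04Rik (trypsins), Pnlip (lipase), Cela1 (elastase), Ctrb1 (chymotrypsinogen) and Reg2 (a regenerating protein). Ctrb1 was at 35.1 and 203 CPM (ratio 5.77, 4.04–8.44). Other neutrophils held 32.9 and 260.3 CPM, and B cell barcodes 23.0 and 155 CPM. Try4 had 1 UMI and 78 UMIs in the members, a ratio of 102 (17.7–4073), and Pnlip 0 and 41 UMIs. For both the other neutrophils differed the same way, at 4.64 and 124 CPM and 0.416 and 53.3 CPM. Acinar RNA was thus higher in all these classes of that library, members included. The remaining 2 genes are lymphocyte genes, Nkg7 at 6.46 and 49.4 CPM (ratio 7.65, 3.397–20.2), and Ccl5 at 21.2 and 106 CPM (ratio 5.00, 3.13–8.29). Of the members of the library labelled KPC-shZEB1, 1 cell held 51.2% of the Nkg7 UMIs, and among cells with at most 1 UMI of each other lineage the log2 ratio of Nkg7 was −2.87.

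The 8 genes with the lowest ratios included secreted neutrophil proteins and noncoding RNAs. Mmp8, the neutrophil collagenase, was at 57.3 and 15.7 CPM (ratio 0.274, 0.138–0.503), and Wfdc21, a small secreted protein, at 302 and 92.8 CPM (ratio 0.307, 0.237–0.395). Mirt2, a noncoding RNA, was at 115 and 39.8 CPM (ratio 0.347, 0.229–0.514) and Eldr at 73.0 and 16.9 CPM (ratio 0.231, 0.121–0.412). In other neutrophils Mmp8 was at 75.7 and 47.2 CPM, Wfdc21 at 349 and 146 CPM, Mirt2 at 200.2 and 137 CPM and Eldr at 99.4 and 69.5 CPM, lower in the same library. Gm17749, AI987944 and Zfp934 were at 36.0 and 4.82 CPM, 53.6 and 16.9 CPM and 48.9 and 13.3 CPM. Frmd5, the last of the 8, was at 36.9 and 3.62 CPM, but 39 of its 40 UMIs in the first library came from 1 cell.

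By list, 6 of 12 recruited neutrophil genes were lower in members of the library labelled KPC-shZEB1 and 0 higher, at a median log2 ratio of −0.63. Over all genes tested between libraries, 4.74% were lower and 13.4% higher. All 4 MHC class II genes were higher, at a median of 1.38. Cd74, the invariant chain that guides class II molecules, was at 311 and 886 CPM (ratio 2.85, 2.50–3.25), and in other neutrophils at 284 and 877 CPM. The macrophage list had 4 of 7 higher and the acinar list 6 of 6, so the class II difference went with RNA of other cells, whose part was not tested. Vegfa was at 219 and 375 CPM (ratio 1.71, 1.44–2.04) in members and at 155 and 152 CPM in other neutrophils.

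**Figure D5:**
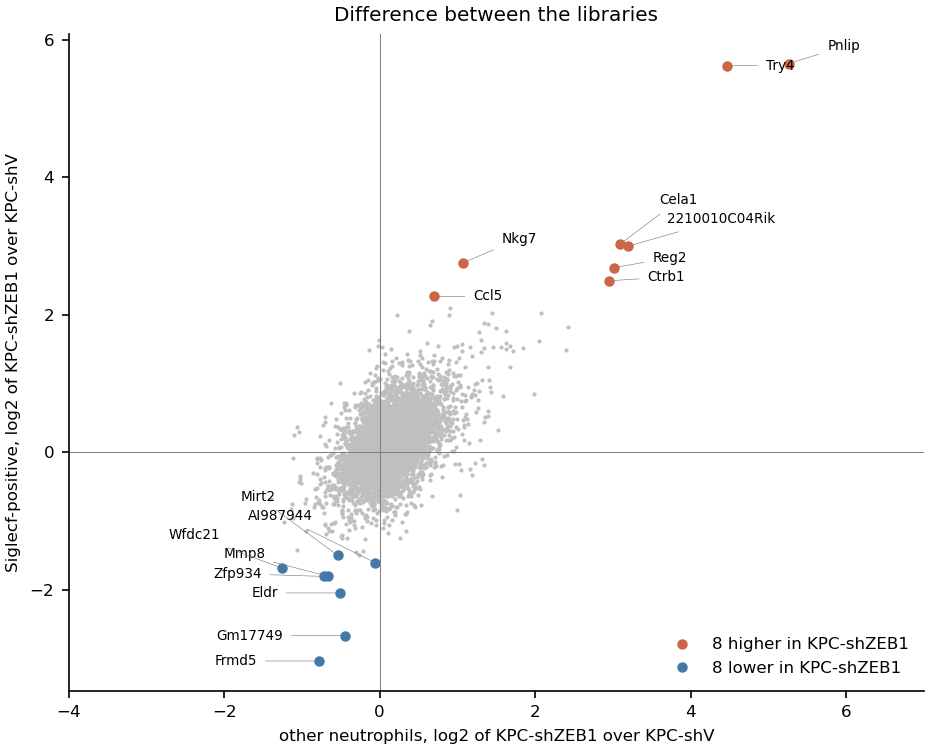
Log2 ratio of the library labelled KPC-shZEB1 to that labelled KPC-shV in other neutrophils (x axis) and in Siglecf-positive neutrophils (y axis) for each gene tested. Genes of the exocrine pancreas such as Try4, Pnlip and Ctrb1 lie high on both axes, while Frmd5 and Gm17749 are low on the y axis.

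The ratio of Siglecf-positive to other neutrophils itself differed between the libraries by at least 1.5-fold for 669 of the 5128 genes. Of these, 337 had a higher ratio in the library labelled KPC-shZEB1 and 332 a lower one. These differences were not tested, with 1 library each. Prdm1, which encodes the transcription factor Blimp-1, was at 157 CPM against 44.3 CPM, and 86.8 against 89.1 CPM, so it was higher with Siglecf in the library labelled KPC-shV and level in the other. Lypd6b was at 19.4 CPM against 13.8 CPM, and 12.1 against 43.6 CPM, Cd300lb, an activating receptor of myeloid cells, at 18.5 CPM against 30.1 CPM, and 6.03 against 37.3 CPM, and Gm17749 at 36.0 CPM against 28.4 CPM, and 4.82 against 20.7 CPM. On the other side were Serpinb2, an inhibitor of plasminogen activators, at 11.1 CPM against 29.7 CPM, and 47.0 against 34.8 CPM, and Areg, the growth factor amphiregulin, at 17.5 CPM against 26.0 CPM, and 56.7 against 25.8 CPM. Pip4k2c, a lipid kinase, was at 10.2 CPM against 35.1 CPM, and 26.5 against 26.5 CPM and A930037H05Rik at 6.46 CPM against 50.7 CPM, and 25.3 against 57.6 CPM. Single cells carried part of these values, since 7 of the 12 Serpinb2 UMIs of the first library and 21 of the 47 Areg UMIs of the second came from 1 cell each.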

How the data were processed

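Single-cell RNA was measured in 2 libraries, 1 per group. The authors deposited raw UMI counts per gene and barcode, made per the file headers and the submitters' processing notes with Cell Ranger 7.0.1 against mm10; whether intronic reads were counted is not given in the sources used here. Members were chosen by the limits given above, and these limits, the gene lists and the rule for named genes were chosen with earlier results of these data known. Doublets were left in, and cells with a Scrublet score above 0.2 (scanpy 1.11.5; 6 of 270 and 3 of 215 members) were left out as an alternative. UMIs were summed per population and given as CPM with exact Poisson intervals, shares with Clopper-Pearson intervals and ratios with exact conditional intervals, at 95%. Genes needed 20 CPM averaged over the populations compared, 1 CPM was added before log2, and a gene was called past 1.5-fold in both libraries. The text names the 12 highest and 12 lowest genes by the smaller of both log2 ratios, the 8 highest and 8 lowest between libraries, the 5 and 5 largest differences of ratio, the markers and members of the lists. Ratios were computed in Python 3.11.15 with numpy 2.4.6 and scipy 1.17.1, tested on simulated counts; the closing section gives the alternatives. Gene coordinates are from GENCODE for GRCm38 and promoters from RefSeq. Of 307 list entries 303 matched a gene in the files. Azu2, BC100530, Mx1 and Mx2 did not. A few genes are not reported here.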

Additional observations from a re-analysis of the deposited data

Results flagged for a closer look

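For Inpp4b, a phosphatase of membrane inositol lipids, the ratio of Siglecf-positive to other neutrophils went opposite ways in the libraries: 48.9 against 27.5 CPM under the label KPC-shV, 41.0 against 63.0 CPM under KPC-shZEB1, a log2 difference of −1.42. T cell barcodes held 1484 and 1292 CPM of it. Mef2c, a transcription factor that B cells hold at 1730 and 1665 CPM, did so too, with 50.8 against 25.9 CPM and 32.6 against 54.3 CPM, a log2 difference of −1.66, and 26 of its 55 UMIs in members of the library labelled KPC-shV came from 1 cell. Without doublet scores above 0.2 the Mef2c difference was 0.0019. Nkg7 and Dusp6 also had calls in opposite directions. These differences were not tested, since each group is 1 library.

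Siglecf was also found in barcodes under the neutrophil gate, with neutrophil genes at 0.1 to 0.4% of UMIs. It had a UMI in 142 of 1251 of them (11.4%, 9.65–13.2) in the library labelled KPC-shZEB1 and in 73 of 1414 (5.16%, 4.07–6.45) in that labelled KPC-shV. Their median depths were 2804 and 3017 UMIs. This difference was not tested either.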

How the results depend on the processing

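No paired analysis was possible because each group is 1 library and no test was made. Of the shares and gene counts recomputed under the alternatives, 62 stayed close to the reported value and 36 moved. Values given below for single genes are on the log2 scale. Membership rests mostly on a single Siglecf UMI, so depth limits which cells are counted. With Siglecf at 2 or more UMIs the shares of neutrophils were 0.949% and 1.52%, 843 genes were higher and 300 lower in Siglecf-positive cells, 1265 and 1008 between libraries, and the Areg difference was −3.46. With neutrophil genes at 0.2% or more, members were 2.64% and 2.34% of kept barcodes, and with 0.8% or more 1.75% and 1.16%. The log2 ratio of Frmd5 between libraries turned to 0.995 at 0.8% or more, 1.27 without Scrublet scores above 0.2 and 1.97 in cells of 2000 to 6000 UMIs. In that last window members held 0 Frmd5 UMIs in the library labelled KPC-shV. In the other library, members with 1 and with at least 2 Siglecf UMIs held 1 Frmd5 UMI each as a group. The Mef2c difference was 0.0019 without those scores, and the Nkg7 difference −0.119 in cells of 2000 to 6000 UMIs. With at most 1 UMI of each other lineage, an alternative added after the data were seen, the share in the library labelled KPC-shZEB1 was 5.22%, the ratio of shares 1.07, the shares of kept barcodes 3.48% and 2.62%, the counts between libraries 1540 higher and 864 lower, Ptgs1 in the library labelled KPC-shZEB1 −0.0037, Nkg7 between libraries −2.87 and the Nkg7 difference −4.28. Thinned to 1000 UMIs, with the Siglecf and interferon limits read on the thinned counts, members were 1.58% and 3.11% of neutrophils (ratio 1.97). They were 0.709% and 0.643% of kept barcodes (ratio 0.907). Among genes of at least 5 CPM, 1029 were higher and 281 lower with Siglecf, and 1994 and 752 between libraries. At 100 CPM these were 91, 87, 94 and 74. A pseudocount of 10 CPM gave 291 higher with Siglecf, and 468 higher and 167 lower between libraries. Relative to the median ratio the counts were 206 higher and 364 lower with Siglecf, a choice also added after the data were seen, and 416 lower between libraries. Of the 519 higher and 185 lower genes without centring, 454 and 160 were also past the fold in cells of 2000 to 6000 UMIs, and 285 and 125 with the limit on other lineages. The cause was not tested, except that fewer genes or cells enter under stricter limits. For single genes and lists, 1036 values stayed close, 284 moved and 9 turned.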
